A study of Mus musculus with 16 samples.

Results

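Of the 22180 genes named on the arrays, 10 are described here: Cd4, Adgre4, Saa3, Cd55, Fgl2, Tmem176a, Tmem176b, Tnfrsf14, Il21r and Igsf6. They encode membrane receptors and secreted immune proteins, and they were picked because their values were lower with a dimethyl ester of α-ketoglutarate (αKG), a metabolite of the tricarboxylic acid cycle, than with DW, the control treatment as labelled. Cd4, Adgre4, Saa3, Cd55, Fgl2, Tmem176a and Tmem176b were picked on the 6 times that both treatments hold, and Tnfrsf14, Il21r and Igsf6 on 3 and 6 h alone. Each gene had a single array feature with 1 gene symbol, so the rule to take the brightest feature changed nothing for them. All 10 passed the filter on dim genes, with means over the 16 arrays between 5.36 and 11.2 log2.

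Bone marrow cells of male C57BL/6 mice, 5 weeks old, were grown into macrophages, and macrophage colony-stimulating factor (M-CSF) was present in every group. Under the cytokine RANKL such macrophages fuse into bone-resorbing osteoclasts. The 2 arrays made at 0 h received DW but no RANKL; arrays with RANKL and DW were made at 3, 6, 12, 24, 48 and 72 h, and arrays with RANKL and 1 mM αKG at 0.5, 1, 3, 6, 12, 24, 48 and 72 h. Each time with RANKL is 1 array per treatment, and the labels join neighbouring times into phases of 2 arrays: a fast phase of 0.5 and 1 h, an early phase of 3 and 6 h, then an intermediate phase of 12 and 24 h and a late phase of 48 and 72 h. The labels name no separate cultures or animals behind the arrays, and p-values therefore reflect the spread among these arrays alone. Against 0 h and between phases, that spread includes the change between the hours of a phase. For αKG minus DW, fitted with time as a block, the spread is how the difference between treatments varies from hour to hour. The effect of RANKL and that of time since 0 h cannot be told apart, since only the 0 h arrays lack RANKL. In bulk RNA, fewer cells of a type and less RNA per cell cannot be told apart either.

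Marker genes of the labelled cells and of other cells were read as list means per array. The mean of the macrophage markers was 10.67 to 10.68 log2 at 0 h. That of the osteoclast markers was 5.18 to 5.19 at 0 h and, at 72 h, 11.33 with DW and 9.52 with αKG. The neutrophil markers had a mean of 7.34 to 7.38 at 0 h, 7.39 and 7.37 at 12 h, and 4.78 with DW and 4.95 with αKG at 72 h. At 0 h and the matched times the B cell markers stayed between 4.21 and 4.61 and the stromal markers between 4.78 and 5.17. The dendritic cell markers ranged from 5.69 to 6.29. Their mean was 5.98 to 6.01 at 0 h, 5.75 with DW and 5.69 with αKG at 48 h, and 6.29 and 5.73 at 72 h. The part of these cells in the values below was not tested.

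As background, RANKL activates NF-κB and AP-1 in macrophages, which switches on inflammatory and membrane genes before the osteoclast genes follow. CD4 is best known as the helper T cell co-receptor for MHC class II, and it is also found on some macrophages and dendritic cells. TMEM176A and TMEM176B are intracellular membrane proteins related to the MS4A family and abundant in dendritic cells and macrophages, and ADGRE4 is an adhesion G protein-coupled receptor of macrophages. SAA3 is the serum amyloid A made by macrophages in inflammation, CD55 shields cells from complement, and FGL2 is a fibrinogen-like protein with coagulant and immunoregulatory forms. TNFRSF14 (HVEM) binds LIGHT and BTLA, IL21R is the receptor of interleukin 21, and IGSF6 is an immunoglobulin superfamily receptor of myeloid cells.

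Tmem176a and Tmem176b had closely alike time courses, and they are overlapping neighbours with starts that lie head to head. The RefSeq span of Tmem176b (chr6:48833811-48845948) covers that of Tmem176a (chr6:48841483-48845364). In RefSeq (GRCm38.p6) a start of Tmem176a on the plus strand lies 109 bases from a start of Tmem176b on the minus strand. The window chr6:48841233-48841532 is shown, plus strand, because it holds both starts; the capitals run from the Tmem176b start to the Tmem176a start.
Tmem176a and Tmem176b: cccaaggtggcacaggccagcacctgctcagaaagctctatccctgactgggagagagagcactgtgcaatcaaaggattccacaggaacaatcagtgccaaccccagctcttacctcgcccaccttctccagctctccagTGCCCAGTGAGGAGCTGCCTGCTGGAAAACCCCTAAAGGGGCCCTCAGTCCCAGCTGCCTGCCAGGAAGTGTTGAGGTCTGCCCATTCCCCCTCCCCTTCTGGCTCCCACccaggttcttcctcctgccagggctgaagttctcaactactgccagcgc
None of the 6 motifs searched lay in the 5 start windows held for these genes, and starts outside these windows were not searched.

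The windows of 4 other members are shown because they hold a match to at least 1 of the 6 motifs, those of AP-1, NF-κB, PU.1, IRF and C/EBP, factors of macrophage genes, and the antioxidant response element; capitals mark the matches, each window holds 300 bases around a RefSeq start on the gene's own strand, and positions give the leftmost printed base of a match, counted from that start. Saa3 (chr7:46715627-46715926, minus strand) holds the IRF letters (GAAA, any 2 bases, GAAA) at -125 and the C/EBP letters TTGCNNAA, on the other strand, at -99. Fgl2 (chr5:21372423-21372722, plus strand) holds the AP-1 letters TGANTCA at -16 and the antioxidant response element letters TGACNNNGC, on the other strand, at 13. Adgre4 (chr17:55749734-55750033, plus strand) holds the C/EBP letters at -46 and the PU.1 letters GAGGAAGT at 42, both on the other strand. Tnfrsf14 (chr4:154928028-154928327, minus strand) holds the IRF letters on the other strand at -64.
Saa3: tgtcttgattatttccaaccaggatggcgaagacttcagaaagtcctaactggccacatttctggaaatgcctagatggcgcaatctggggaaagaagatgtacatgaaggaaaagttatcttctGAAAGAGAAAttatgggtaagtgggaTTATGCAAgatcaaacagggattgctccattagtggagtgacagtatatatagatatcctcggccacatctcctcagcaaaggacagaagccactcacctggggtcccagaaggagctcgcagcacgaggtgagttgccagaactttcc
Fgl2: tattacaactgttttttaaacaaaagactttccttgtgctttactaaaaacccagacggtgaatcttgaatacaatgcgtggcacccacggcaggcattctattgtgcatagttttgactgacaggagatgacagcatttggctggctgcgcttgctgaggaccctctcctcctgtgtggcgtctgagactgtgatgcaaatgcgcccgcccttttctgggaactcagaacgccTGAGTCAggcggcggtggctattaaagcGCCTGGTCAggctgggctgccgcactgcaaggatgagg
Adgre4: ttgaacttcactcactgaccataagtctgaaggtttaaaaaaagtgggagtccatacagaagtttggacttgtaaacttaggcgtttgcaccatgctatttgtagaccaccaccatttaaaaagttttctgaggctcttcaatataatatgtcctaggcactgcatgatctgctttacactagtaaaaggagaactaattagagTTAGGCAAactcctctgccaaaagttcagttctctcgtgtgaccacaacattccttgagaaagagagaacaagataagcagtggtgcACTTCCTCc
Tnfrsf14: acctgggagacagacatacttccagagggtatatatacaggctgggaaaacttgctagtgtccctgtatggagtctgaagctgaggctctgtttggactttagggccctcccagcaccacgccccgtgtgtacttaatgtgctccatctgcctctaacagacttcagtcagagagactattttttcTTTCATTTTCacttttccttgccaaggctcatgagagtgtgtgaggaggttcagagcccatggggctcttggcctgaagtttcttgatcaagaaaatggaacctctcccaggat
Both strands were searched, and no matches overlapped. Of 32851 windows of 300 bases, 7.81% hold the AP-1 letters, 1.47% the NF-κB letters (GGGA, any 2 bases, TTCC), 3.2% PU.1, 3.44% IRF, 12.4% the antioxidant response element and 10.8% C/EBP. Among the 9 members with a window, 1 held AP-1, 0 NF-κB, 1 PU.1, 2 IRF, 1 the antioxidant response element and 2 C/EBP. A match is a description of these letters and no evidence of binding.

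Cd4 had the largest mean difference from DW of the 10 genes. Its level was 4.77 and 4.96 log2 at 0 h. With RANKL and DW it was 5.76, 6.79, 9.65, 8.69, 7.44 and 10.60 at the matched times from 3 to 72 h. With αKG it was 5.06, 4.61, 8.27, 7.18, 5.34 and 8.77. Both treatments were high at 12 and 72 h and lower at 48 h than at 24 or 72 h, and the αKG array was the lower of the pair each time. The differences (αKG minus DW) ran from -2.18 at 6 h to -0.70 at 3 h, with a mean of -1.62 ± 0.55 log2 (SD over 6 times), or 3.07-fold lower. At 6 h the αKG array lay under both 0 h arrays, whereas both early DW arrays lay above them.

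Adgre4 followed a like course. It was 4.0 and 4.34 log2 at 0 h, and with DW 6.56, 7.44, 8.98, 6.44, 5.10 and 9.63 from 3 to 72 h. With αKG it was 5.42, 5.81, 8.26, 5.99, 4.08 and 7.76, so that the 48 h array lay between the 0 h arrays. The 72 h value was 23.0-fold above the 48 h value with DW and 12.8-fold above it with αKG, each from single arrays. The αKG array at 48 h and the lower 0 h array lay under 4.33 log2, the limit on the mean used to remove dim genes. The difference was largest at 72 h (-1.86) and smallest at 24 h (-0.45), with a mean of -1.14 ± 0.54 (SD over 6 times).

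Tmem176a and Tmem176b lay above their 0 h arrays in both treatments at every time from 3 h on. Tmem176b was 5.91 and 5.75 log2 at 0 h, and with DW 9.03, 10.06, 11.14, 10.13, 8.40 and 10.79 from 3 to 72 h. With αKG it was 8.08, 8.79, 10.78, 9.62, 7.64 and 10.01. Its highest value, at 12 h, was 39.6-fold above the 0 h mean with DW and 30.9-fold with αKG. Tmem176a was 5.73 and 5.44 at 0 h, and with DW 8.12, 8.94, 10.49, 9.44, 7.07 and 9.84. With αKG it was 7.20, 7.64, 9.79, 9.12, 6.72 and 8.78. The mean differences were near equal, -0.77 ± 0.32 for Tmem176b and -0.77 ± 0.39 for Tmem176a (SD over 6 times), and both were largest at 6 h (-1.26 and -1.30). The genes are relatives and their features may share probe sequence.

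Saa3 was high from 3 to 24 h and near or under its 0 h arrays at 48 and 72 h. It was 5.51 and 5.21 log2 at 0 h, and with DW 7.36, 7.55, 7.92, 7.21, 5.38 and 5.26 from 3 to 72 h. With αKG it was 6.15, 6.49, 6.66, 6.12, 4.73 and 4.85, so its highest value was 2.47-fold over 0 h against 5.90-fold with DW. The 4 arrays with αKG from 3 to 24 h all lay under the 4 DW arrays of those times. The differences were -1.26 to -1.06 up to 24 h, then -0.65 at 48 h and -0.42 at 72 h.

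Cd55 was highest at 72 h in both treatments, with the 48 h array above the 24 h array. It was 4.04 and 5.03 log2 at 0 h, the lower value under the limit of 4.33 on the mean used to remove dim genes. Its gap of 0.99 at 0 h is the widest of the 10 genes there. With DW it was 5.57, 5.39, 5.88, 6.33, 6.87 and 7.44 from 3 to 72 h, and with αKG 4.98, 4.64, 5.20, 4.55, 5.01 and 6.43. Up to 48 h every αKG array lay at or under 5.20, close to the upper 0 h array, whereas all 6 DW arrays lay above it. The differences were largest at 24 h (-1.79) and 48 h (-1.85), and the mean was -1.11 ± 0.57 (SD over 6 times).

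Fgl2 had the smallest mean difference among the genes picked on the 6 times. It was 6.75 and 6.92 log2 at 0 h, and with DW 7.85, 8.54, 8.81, 6.89, 6.12 and 7.50 from 3 to 72 h. With αKG it was 7.28, 7.29, 7.80, 6.44, 5.58 and 6.98. Both treatments were highest at 12 h and lowest at 48 h, under the 0 h arrays. Its mean difference was -0.72 ± 0.33 (SD over 6 times), the largest being -1.25 at 6 h.

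**Figure D1:**
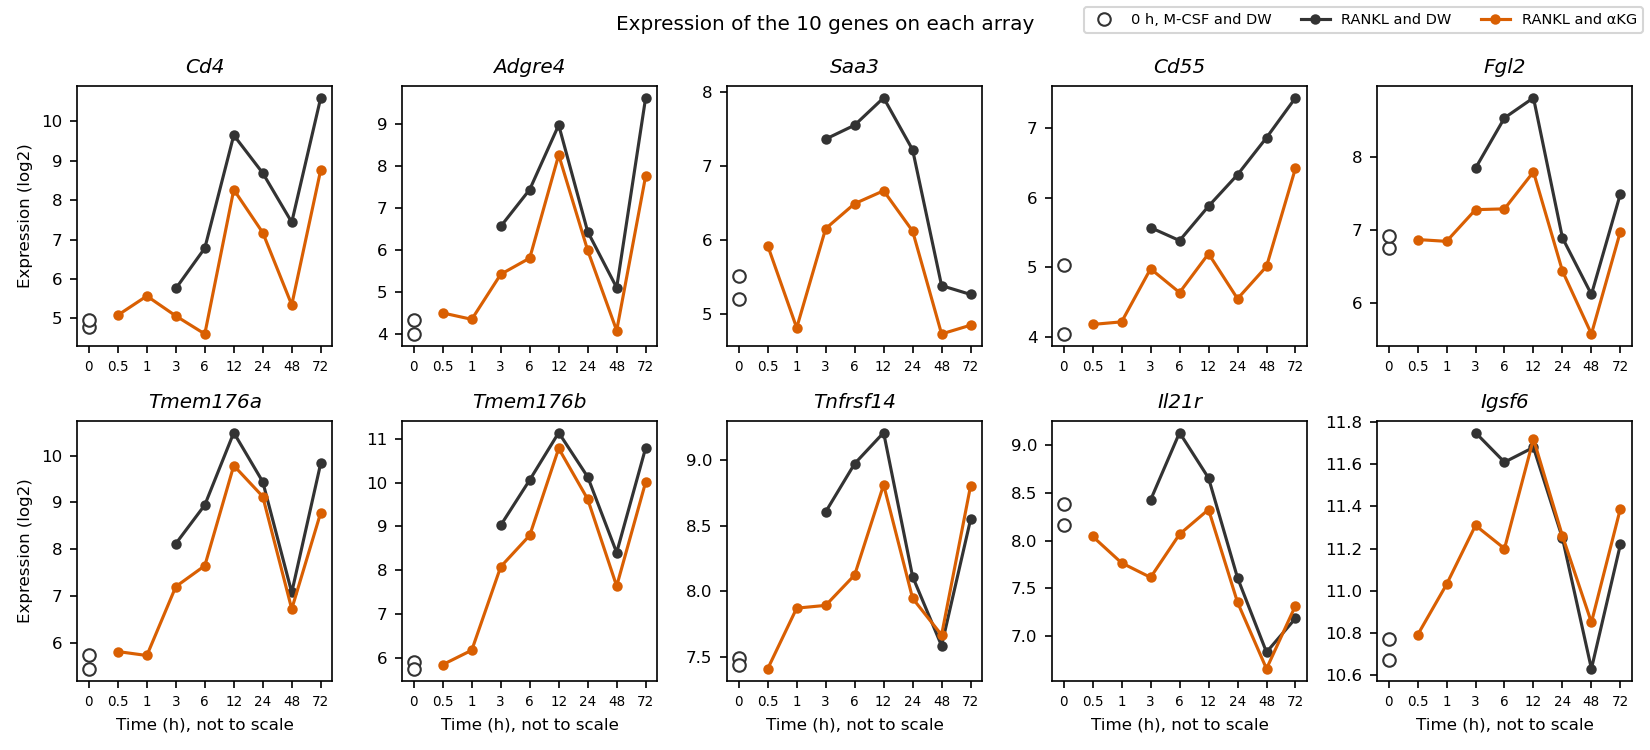
Expression of each gene in log2 units on the vertical axis against time in hours (categories, not to scale); open circles are the 2 arrays at 0 h, black points the RANKL and DW arrays, orange points the RANKL and αKG arrays, 1 array per point. Cd4 reads 10.60 with DW and 8.77 with αKG at 72 h, and in most panels both lines peak at 12 h and dip at 48 h.

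Tnfrsf14, Il21r and Igsf6, picked on 3 and 6 h, had smaller differences between the treatments from 12 h on, a change that was not tested. Tnfrsf14 was 7.49 and 7.44 log2 at 0 h, 8.61 and 8.97 with DW at 3 and 6 h, and 7.89 and 8.12 with αKG. Later its DW values were 9.21, 8.11, 7.58 and 8.55 and its αKG values 8.81, 7.95, 7.67 and 8.80 (12 to 72 h), so that the αKG array was the higher at 48 and 72 h. Il21r was 8.16 and 8.38 at 0 h, 8.43 and 9.13 with DW at 3 and 6 h, and 7.61 and 8.07 with αKG; both αKG arrays lay under the 0 h arrays and both DW arrays above them. From 12 to 72 h Il21r was 8.65, 7.61, 6.83 and 7.18 with DW and 8.32, 7.35, 6.66 and 7.32 with αKG. Igsf6 was 10.77 and 10.67 at 0 h, 11.75 and 11.61 with DW at 3 and 6 h, and 11.31 and 11.20 with αKG. From 12 to 72 h Igsf6 was 11.68, 11.25, 10.63 and 11.22 with DW and 11.72, 11.26, 10.85 and 11.39 with αKG.

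These 3 genes passed at 3 and 6 h and not over the 6 times, so small later differences were partly fixed by the choice. The later values and the counts of genes passing below are therefore a description, and nothing is read from them. In the fit with time as a block (limma), 0 of 3 passed at 12 and 24 h, where 0.0966% of all tested genes passed in either direction, and 0 of 3 at 48 and 72 h, where 2.18% passed as lower and 2.09% as higher; at an unadjusted p under 0.05 the counts were 2 of 3 and 1 of 3. At 12 and 24 h Tnfrsf14 stood at -0.28 ± 0.11 log2 (standard error), Il21r at -0.29 ± 0.12 and Igsf6 at 0.02 ± 0.06. At 48 and 72 h Tnfrsf14 stood at 0.17 ± 0.11, Il21r at -0.02 ± 0.12 and Igsf6 at 0.19 ± 0.06. The standard errors come from the same fit as the comparison that picked the genes.

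Over all 10 genes the αKG array was under the DW array for 10 of 10 at 3 and 6 h, 9 at 12 and 24 h, 8 at 48 h and 7 at 72 h. The median difference was -0.76, -1.16, -0.69, -0.45, -0.60 and -0.65 log2 in the order of the 6 times, while the median of all tested genes stayed between -0.01 and 0.02. The genes picked on the 6 times, 7 of 10, were lower at all 6 of them; 3.98% of all tested genes were. In the fit of 1 αKG effect 7 of 10 passed as lower, against 0.135% of all tested genes, and at 3 and 6 h 6 of 10 against 0.0644%. These values chose the genes, so the counts are a description and nothing is read from them. The size was not the same at each time: it was largest at 6 h for Cd4, Fgl2, Tmem176a, Tmem176b, Tnfrsf14 and Il21r, at 72 h for Adgre4, at 12 h for Saa3, at 48 h for Cd55 and at 3 h for Igsf6.

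**Figure D2:**
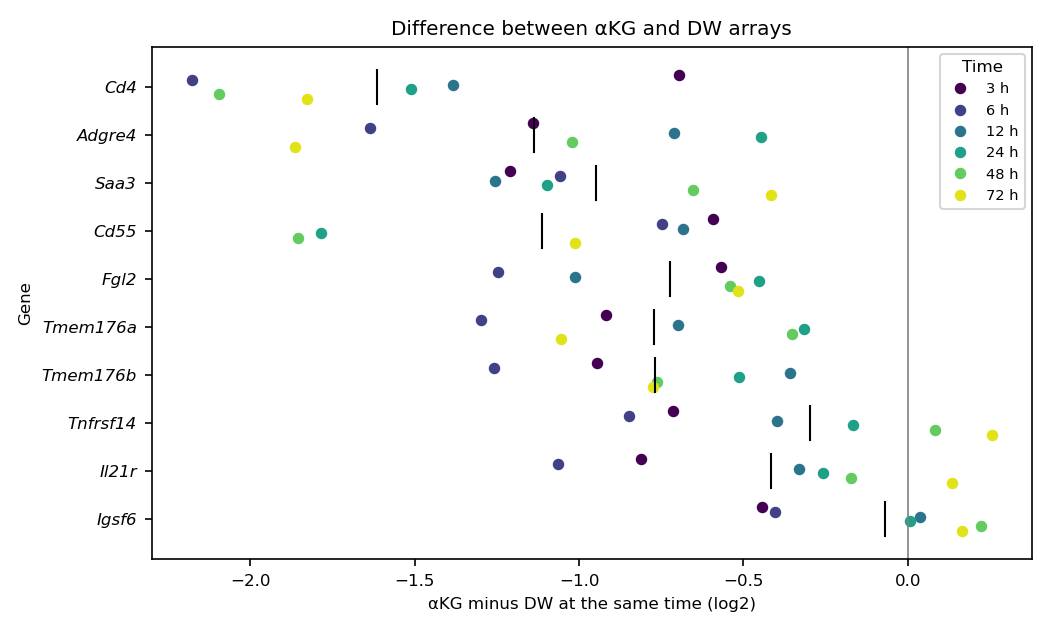
Difference αKG minus DW in log2 units on the horizontal axis for each gene on the vertical axis; points are the 6 matched times, coloured by hour, 1 pair of arrays each, and black ticks are means over the 6 times. Cd4 lies farthest left with a mean of -1.62, and Tnfrsf14, Il21r and Igsf6 have points right of 0.

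Against 0 h, some of the 10 genes were higher in each phase with RANKL and DW, and the DW arrays used here are also those of the αKG comparison that picked the genes. Early, Saa3 rose by 2.10 ± 0.33 log2 (standard error; adjusted p = 0.0249, limma), 1 of 10 genes against 0.303% of all tested genes called higher. Tmem176b (3.71 ± 0.83, adjusted p = 0.142), Tmem176a (2.94 ± 0.81, adjusted p = 0.257) and Adgre4 (2.83 ± 1.45) had larger values and did not pass. In the intermediate phase Tmem176b rose by 4.81 ± 0.83 (adjusted p = 0.0275), Tmem176a by 4.38 ± 0.81 (adjusted p = 0.037) and Saa3 by 2.21 ± 0.33 (adjusted p = 0.0141), 3 of 10 against 0.451% of all tested genes; Cd4 stood at 4.31 ± 1.07 (adjusted p = 0.118). Late, Cd4 rose by 4.16 ± 1.07 (adjusted p = 0.0412), Tmem176b by 3.76 ± 0.83 (adjusted p = 0.0217) and Cd55 by 2.62 ± 0.44 (adjusted p = 0.00531), 3 of 10 against 3.34% of all tested genes.

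The other genes did not pass late. Tmem176a stood at 2.87 ± 0.81 (adjusted p = 0.0596, limma), Adgre4 at 3.19 ± 1.45, Tnfrsf14 at 0.60 ± 0.47 and Igsf6 at 0.20 ± 0.24. Saa3 (-0.03 ± 0.33) and Fgl2 (-0.03 ± 0.67) had values near 0, and Il21r stood at -1.27 ± 0.41 (adjusted p = 0.0947). From the intermediate to the late phase Saa3 fell by 2.24 log2 with DW (standard error 0.33, adjusted p = 0.00743), the 1 member to change, against 0.522% of all tested genes called lower. With αKG the same step was -1.60 ± 0.33 (adjusted p = 0.161, limma) and 0 of 10 passed, where 0.058% of all tested genes changed in either direction. At an unadjusted p under 0.05 the count was 1 of 10. The share of all tested genes at that p is not given here, so nothing is read from it.

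These calls rest on few arrays. Without the 3 h, the 6 h or either 0 h array Saa3 no longer passed early (adjusted p = 0.172 to 0.283, limma, at 1.95 to 2.25 log2). Of the 3 intermediate calls, 0 remained without either 0 h array or the 12 h array, and Saa3 remained without the 24 h array (2.56 log2, adjusted p = 0.0353). Of the 3 late calls, all remained without the 48 h array, when Cd4 stood at 5.74 and Tmem176b at 4.96; Cd55 remained without the 72 h array (2.33, adjusted p = 0.0469) or the second 0 h array (3.11, adjusted p = 0.0152), and 0 remained without the first 0 h array. Without the 72 h array Cd4 stood at 2.58 (adjusted p = 0.28) and Tmem176b at 2.57 (adjusted p = 0.162). Fits of only the 2 groups compared called 8 of 10 early, 0 intermediate and 0 late, and 0 from intermediate to late. The share of all tested genes that these fits called is not given here, so nothing about the members is read from these counts. The fall of Saa3 from intermediate to late was lost without the 12 h array (adjusted p = 0.0889) or the 72 h array (adjusted p = 0.0517).

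With αKG, fewer of the 10 genes passed against the same 0 h arrays. In the first hour 0 of 10 passed, as did 0% of all tested genes (limma), and at an unadjusted p under 0.05 the counts were 0 of 10 and 540 of 15526. The values ran from -0.37 ± 0.41 for Il21r to 0.46 ± 1.07 for Cd4. At 3 and 6 h 0 of 10 passed, against 0.502% of all tested genes in either direction. Values ran from -0.43 for Il21r to 2.61 ± 0.83 for Tmem176b, and 4 genes had an unadjusted p under 0.05. At 12 and 24 h Tmem176b rose by 4.37 ± 0.83 (adjusted p = 0.0465), 1 of 10 against 0.432% of all tested genes called higher, and Tmem176a stood at 3.87 ± 0.81 (adjusted p = 0.0593); the call was lost without any 1 of its 4 arrays (adjusted p = 0.105 to 0.321). At 48 and 72 h 0 of 10 passed, against 1.43% of all tested genes in either direction. Values ran from -1.29 for Il21r to 2.99 ± 0.83 for Tmem176b, and 4 genes had an unadjusted p under 0.05. For these phases the share of all tested genes at that unadjusted p is not given here, so nothing is read from the unadjusted counts. Both treatments share the 0 h arrays, and the difference between them is the comparison that picked the genes, so it is not tested again here. The median change of the 10 genes was 1.38 early, 1.89 intermediate and 1.61 late with DW, and 0.54, 0.97 and 0.98 with αKG, while that of all tested genes stayed between -0.01 and 0.00.

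**Figure D3:**
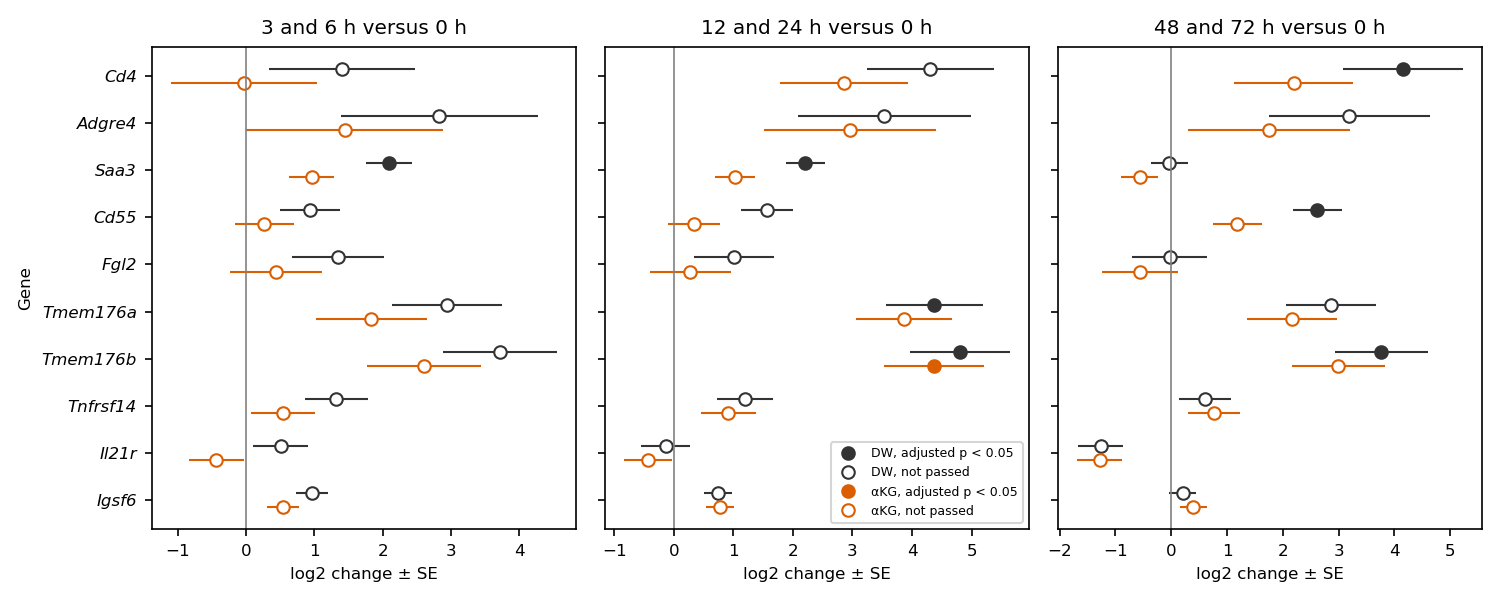
Change from 0 h in log2 units, with standard error, on the horizontal axis for each gene on the vertical axis, in the early, intermediate and late phase from left to right; black is DW, orange is αKG, filled points passed adjusted p under 0.05 (limma, 2 arrays per group). With αKG the filled point is Tmem176b at 12 and 24 h (4.37), whereas DW has 1, 3 and 3 filled points.

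A shape common to both treatments stood out after the values were seen, a peak at 12 h and a dip at 48 h. The 12 h array was above the 6 h and the 24 h arrays in both treatments for 8 of 10 genes, against 21.6% of all tested genes. The 48 h array was below the 24 h and the 72 h arrays in both treatments for 8 of 10 genes, all but Saa3 and Cd55, against 11.6% of all tested genes. Each time is 1 array per treatment, so the shape has no test. Macrophage markers shared the 48 h dip, and 5 of 8 tested had it in both treatments. Their mean level was 9.77 with DW and 10.20 with αKG at 48 h, 10.33 and 10.54 at 72 h, and 10.67 to 10.68 at 0 h. Of the T cell, B cell, neutrophil, stromal and osteoclast markers 0 had that dip, and 1 of 8 dendritic cell markers did. The 12 h peak was seen in 5 of 7 neutrophil, 2 of 8 macrophage, 1 of 4 B cell and 1 of 8 dendritic cell markers, and in 0 of the T cell, stromal and osteoclast markers. The part of these markers in the result was not tested.

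By likeness of the whole time course, Cd4, Adgre4, Tmem176a and Tmem176b had each other as nearest genes. Likeness was the root mean square difference of the log2 values over 16 arrays after each gene's mean was taken off, where a smaller value is more alike. Tmem176a and Tmem176b differed by 0.373, against 1.62 and 1.83 for their own spread, and Adgre4 was next for both (0.714 and 0.792). Tnfrsf14 and Igsf6, which move less, differed by 0.289, against 0.574 and 0.366 for their own spread. The measure is not scaled to the spread, so a small value between genes that move little need not mean a close likeness. The genes nearest to Cd4 were Adgre4 (0.979) and Tmem176a (1.03), and those nearest to Adgre4 were Tmem176a and Tmem176b. The own spread was 1.87 for Cd4 and 1.75 for Adgre4. Outside the group, Saa3 was nearest to the scavenger receptor gene Marco (0.489) and the adhesion gene Vcam1 (0.531), and Fgl2 to the G-CSF receptor gene Csf3r (0.294) and Il13ra1 (0.323). Cd55 was nearest to Gstt2 (0.401) and Ccdc122 (0.485), Tnfrsf14 to Cyria (0.178) and the purinergic channel gene P2rx4 (0.213), Il21r to Rtn1 (0.317) and Plac8 (0.318), and Igsf6 to Rhoq (0.117) and Lyst (0.159).

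Since CD4 marks helper T cells, T cell markers were read on the same arrays. Of 12 listed, 10 were on the arrays and 6 passed the filter on dim genes; Cd3e, Cd3g, Cd2 and Cd8a did not pass it, and Cd3e spanned 3.81 to 4.40 log2 over the 16 arrays. Il7r spanned 5.56 to 9.05 and Cd5 4.90 to 6.23, and against 0 h they were called in opposite directions late with DW (Il7r -2.70 ± 0.68, Cd5 0.84 ± 0.21, limma), so the list mean hides members that moved. The mean level of the list was 4.88 and 4.90 at 0 h, 4.63 to 4.96 with RANKL and DW and 4.75 to 4.95 with αKG, while Cd4 spanned 5.99 log2. Of the 6 tested, 0 passed over the 6 times with αKG (2 at an unadjusted p under 0.05), where 0.399% of all tested genes passed (limma). Late, 1 was higher with αKG than with DW, Il7r, which is also among the partners of Il21r. The part of T cells in the level of Cd4 was not tested.

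Ligands, relatives and signalling partners of the 10 genes were read from lists. Of 87 listed genes 79 were on the arrays and 66 were tested. Over the 6 times 1 was higher with αKG than with DW, Treml4, a receptor of the TREM family (0.48 ± 0.08 log2, adjusted p = 0.0496, limma). By contrast 0 were lower (5 at an unadjusted p under 0.05). Of all tested genes 0.264% were higher and 0.135% lower. The count went to 0 without the pair of arrays at 6, 12, 24 or 48 h and to 2 without that at 72 h. The partners with the next smallest p were Cd300lb (0.48 ± 0.09, adjusted p = 0.0602) and the adhesion receptor gene Adgrl2 (-0.29 ± 0.08, adjusted p = 0.166). The partners' median was 0.01 log2 and that of all tested genes 0.00.

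In late arrays 9 of the 66 partners were higher with αKG than with DW and 0 were lower (5 at an unadjusted p under 0.05). Of all tested genes 2.09% were higher and 2.18% lower, and the partners' median difference was 0.10 log2. These are differences from DW at the same hours, not changes from 0 h. Late with DW, the 9 genes stood below 0 h, from -2.70 log2 for Il7r to -0.62 for Ms4a6d. Of 9 tested MS4A relatives of Tmem176a and Tmem176b, 3 were higher with αKG than with DW. They were Ms4a6b (0.83 ± 0.17), Ms4a6c (0.50 ± 0.10) and Ms4a6d (0.47 ± 0.10), with adjusted p = 0.0298, 0.0245 and 0.0373 (limma). At the same times Tmem176a and Tmem176b differed by -0.35 and -0.76 at 48 h and by -1.06 and -0.78 at 72 h. Of 12 complement genes the anaphylatoxin receptor genes C5ar1 (0.68 ± 0.09) and C3ar1 (0.67 ± 0.11) were higher, while Cd55 stood at -1.85 at 48 h and -1.01 at 72 h. Another list held 11 immunoglobulin superfamily genes, all but Clmp receptor genes of myeloid cells. Of these, Trem2 (0.67 ± 0.08), Cd300ld (0.65 ± 0.11) and Cd300lb (0.61 ± 0.14) were higher. Of 10 genes of common γ chain signalling Il7r (1.06 ± 0.14) was higher. For 6 CD4 ligand and signalling genes, 4 adhesion receptors, 4 acute phase genes, 2 fibrinogen-like genes or receptors and 8 HVEM partners 0 passed. The MS4A genes are close relatives and may share probe sequence.

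Without the 48 h pair of arrays, which leaves 1 late array per treatment, partners were called in both directions. Without the 72 h pair they were called as higher alone. Without the trend 3 passed, and without time as a block 0. The shares of all tested genes under these settings are not given here, so nothing about partners is read from these counts. After quantile normalization or centring on medians 1 partner was called lower. Of all tested genes 321 were higher and 334 lower after quantile normalization, and 336 and 330 after centring. Markers differed at the same times. Of 8 macrophage markers Cx3cr1 (1.13 ± 0.14) and Itgam (0.39 ± 0.07) were higher late with αKG than with DW and 0 were lower (limma). Of the osteoclast markers 8 of 8 were lower, among them Oscar (-2.79 ± 0.14), Dcstamp (-2.14 ± 0.14) and Ocstamp (-2.07 ± 0.16). Of 7 neutrophil markers 1 was higher, Camp (0.69 ± 0.14), and 0 were lower. Of all tested genes 2.09% were higher and 2.18% lower in this comparison. Against 0 h, late with DW, Cx3cr1 stood at -2.26, Itgam at -0.52 and Camp at -1.87 log2. The part of these markers in the partners' values was not tested.

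**Figure D4:**
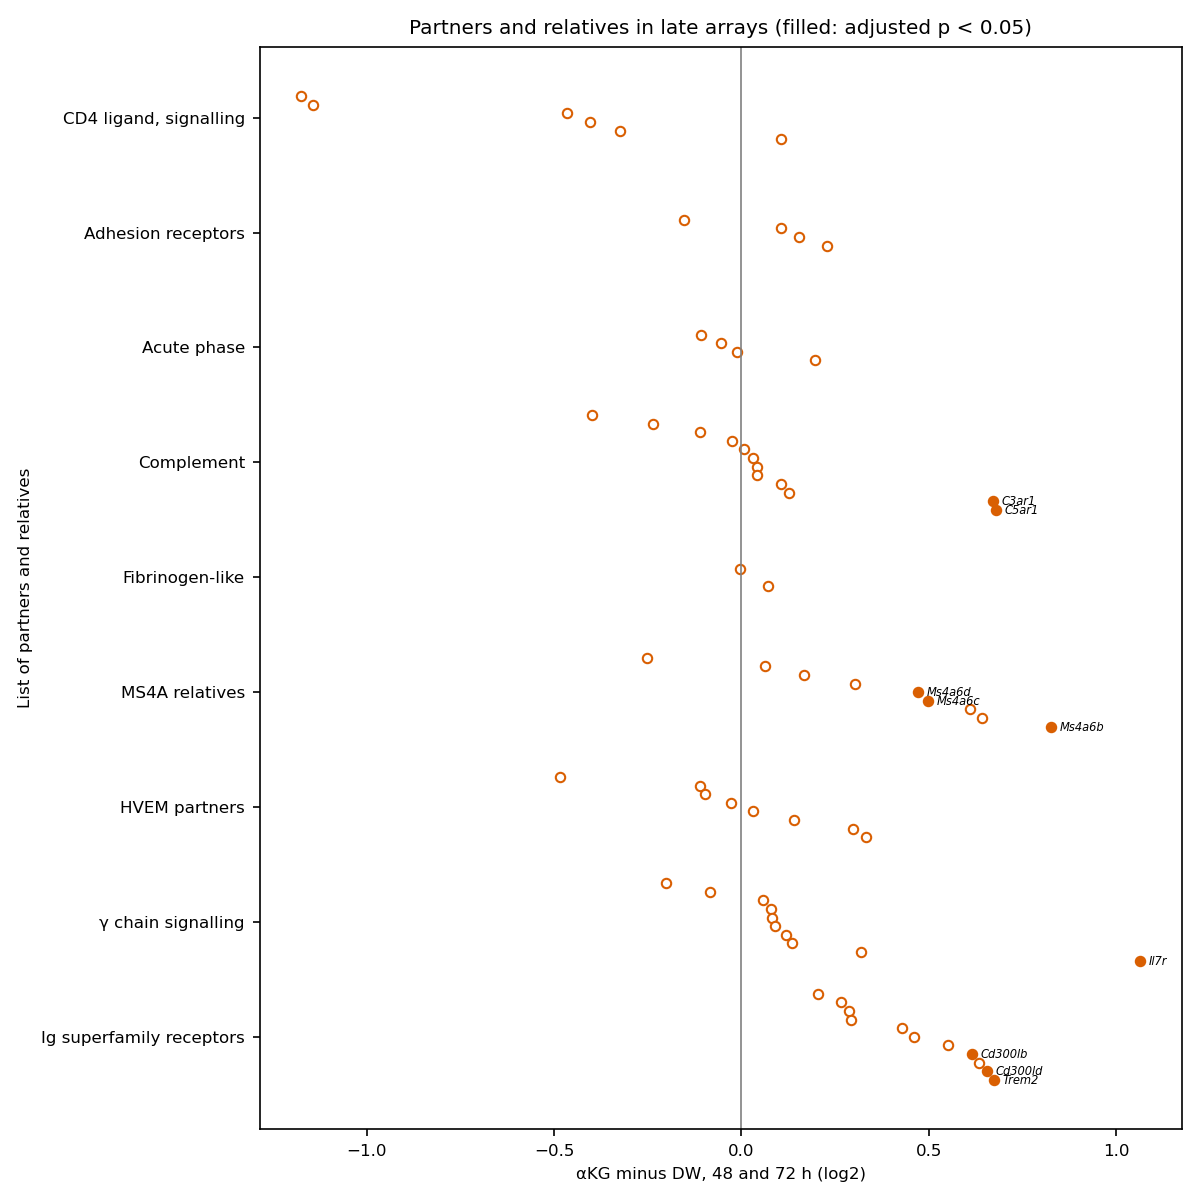
Difference αKG minus DW at 48 and 72 h in log2 units on the horizontal axis for 66 partners and relatives, grouped by list on the vertical axis; each point is 1 gene, and filled points passed adjusted p under 0.05 (limma with time as a block). The 9 filled points, from Ms4a6d at 0.47 to Il7r at 1.06, all lie right of 0.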

How the data were processed

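Per the labels' protocols, total RNA was made into sense cDNA, fragmented and biotin-labelled for arrays of 1 colour. The authors deposited 1 log2 value per feature and array; the base is taken from the values, which span 0.61 to 13.25, with array medians from 4.84 to 4.93. How the deposited log2 values were summarised, background-corrected and normalized, and on which build, the sources used here do not say; no limit of detection or saturation was set.

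Of 33793 features, 23521 had 1 gene symbol, 1814 several and 8458 are unnamed here. The feature with the highest mean was kept for each of 22180 genes, and 15526 genes remained for testing once the dimmest 30%, with a mean up to 4.33 log2, were removed. limma 3.58.1 in R 4.3.3 (lmFit, eBayes with an intensity trend) was fitted to all genes, with Benjamini-Hochberg adjustment over all of them and a threshold of 0.05. Changes from 0 h and between phases came from 1 fit of 8 groups (8 residual degrees of freedom); αKG minus DW came from the 12 arrays at matched times with time as a block (3 residual degrees of freedom with an effect per phase, 5 with 1 effect). Time pairs came from the labels and were checked: deviations from the treatment means correlated across genes at r = 0.502 to 0.749. Fits were tested on simulated data. Beyond the first hour, counts at an unadjusted p have no share of all tested genes at that p beside them, and nothing is read from them. The number of arrays limits the precision.

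The members and lists were chosen with earlier results of these data known. All 10 members are named; of each list the 3 genes with the smallest p, and all that passed where 5 or fewer did; for likeness the 2 nearest named genes, skipping predicted and small RNA genes. The 12 h peak and 48 h dip were chosen after the values were seen. Sequences are RefSeq's (GRCm38.p6); 9 of 10 members had a start window, and Cd4 had none in the table used. Marker lists covered T cells, B cells, neutrophils, dendritic cells, stroma, macrophages and osteoclasts. Alternatives were no filter or a filter at 50%, quantile normalization, centring on medians, eBayes without a trend or robust, the mean of a gene's features, fits of only the groups compared, no time block, and leaving out arrays.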

Additional observations from a re-analysis of the deposited data

Results flagged for a closer look

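For 2 of the genes picked on 3 and 6 h, the αKG minus DW differences had opposite signs in different phases, with both times of a phase on 1 side of 0. None of these differences between phases was tested, because the early values picked the genes. Tnfrsf14 was below DW at 3 and 6 h and above it at 48 and 72 h, and its late minus its early difference was 0.95 log2. It was also below DW at 12 and 24 h, and the late minus the intermediate difference was 0.45. Igsf6 was below DW at 3 and 6 h and above it at 12 and 24 h by at most 0.04, with a step of 0.45 between these phases. Late, Igsf6 was above DW by 0.22 and 0.17, with a step of 0.62 from the early phase. Groups of 2 arrays are too small for a check of single outlying arrays.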

How the results depend on the processing

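The median αKG minus DW difference of the 10 genes (-0.77 log2 over 6 times) was -0.84 to -0.67 when a pair of arrays was left out, -0.75 after quantile normalization and -0.76 after centring on medians. This difference on the same arrays picked the genes, so these values are a description and nothing is read from their small spread. Counts of members against 0 h depended on the arrays. With 1 array left out, 0 of 10 passed early with DW (1 with all arrays), 0 to 1 intermediate (3), 0 to 5 late (3), 0 to 1 from intermediate to late (1) and 0 intermediate with αKG (1). Fits of only the 2 groups compared gave 8, 0, 0, 0 and 0 in that order, and 6 early with αKG (0 in the fit of all groups). For these fits the share of all tested genes called is not given here, and nothing is read from the counts. The intermediate αKG count was also 0 with no filter and after quantile normalization. Of the partners over the 6 times (1 with all arrays) 0 passed with no filter, without a trend or with the mean of a gene's features, and 0 to 2 with a pair of arrays left out. Of the late partners (9), whose alternatives were added after the data were seen, 3 passed without a trend and 8 to 16 with a pair left out; the split was 8 higher and 1 lower after quantile normalization and 9 higher and 1 lower after centring. Without time as a block (no replicate block) 0 passed in both partner counts, and 0 of the 3 genes picked early passed at 12 and 24 h or late. Single values that changed sign were never called: Fgl2 late with DW was 0.028 after quantile normalization and -0.72 to 0.66 with an array left out, Saa3 late -0.18 to 0.12, Igsf6 late -0.093 to 0.50, Il21r intermediate -0.66 to 0.38, and Il21r late with αKG against DW -0.17 to 0.13. Of the 9 called member values, 62 of 72 values under other processing and 8 of 36 with arrays left out stayed past the threshold, and 0 changed sign. Centring on medians split the calls of all genes from intermediate to late with DW into 119 higher and 109 lower (139 and 81 as deposited). The 2 arrays per group limit the precision.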

Other observations

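MHC class II genes, whose products are the ligand of CD4, stood lower with αKG in late arrays without passing: H2-Aa at -1.17 ± 0.28 log2 (adjusted p = 0.0512, limma) and H2-Ab1 at -1.14 ± 0.33 (adjusted p = 0.0941). H2-Eb1 of the same list stood at -0.40 ± 0.22 (adjusted p = 0.369). Lag3, which binds the same ligand, stood at -0.47 ± 0.14 (adjusted p = 0.108).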
